A study of Arabidopsis thaliana and Solanum lycopersicum with 40 samples.

Results

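The homeobox-leucine zipper (HD-Zip) genes described here are the tomato genes whose deposited description contains "homeobox-leucine zipper", "homeobox leucine zipper" or "HD-ZIP" in any case. The rule found 84 of the 34075 identifiers in the tomato table. HD-Zip transcription factors are found only in plants. They pair a DNA-binding homeodomain with a leucine zipper through which they bind DNA as dimers. The family has 4 classes. In Arabidopsis, class I genes are known for responses to drought, abscisic acid and light, and class II genes for shade avoidance and auxin responses in the shoot, where ATHB-2 (also called HAT4) rises quickly when the ratio of red to far-red light drops. Class III genes set organ polarity and vascular patterning, and class IV genes act in the epidermis, where GLABRA 2 keeps root epidermal cells from making hairs.

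Transcript levels came from RNA sequencing of roots of tomato (Solanum lycopersicum, cultivar M82), as FPKM, which are fragment counts relative to transcript length and library depth. All seedlings had grown for 7 days in white light before the treatment. The shaded groups were then moved to shade for 3, 6, 12 or 24 h, and the unshaded groups were kept unshaded and sampled at the same 4 times. Each of the 8 groups held 2 libraries, called library 1 and library 2 by the replicate numbers of the labels, which made 16 in all. The labels name no genotype other than the cultivar and do not say whether the libraries of a group came from separate cultures, so p-values measure only the spread between these libraries, which may be technical. The spectrum of the shade is not in the labels. Arabidopsis roots of the same series, read here only for comparison, came from accession Col-0 seedlings grown for 5 days in white light.

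Summed FPKM lay between 907100 and 1021000 per tomato library, and replicate libraries correlated at Pearson's r of 0.957 to 0.982 across genes, which are not independent replicates. Whole fragments recovered from the steps between low FPKM values summed to between 7377449 and 15544424 per library over the genes where this was possible. A set of 7 endodermal genes described as Casparian strip membrane proteins, chosen as root markers, was above 0 throughout, with summed levels of 209 to 364 FPKM in shaded roots and 158 to 320 FPKM in unshaded roots, and 4 of the 6 tested were higher in shade averaged over time points (18.2% of all tested genes were). Of 40 genes for chlorophyll-binding proteins and the small subunit of Rubisco, which mark green tissue, 38 were above 0. Their summed level was 604 to 705 FPKM in shaded roots and 1015 to 1233 FPKM in unshaded roots at 24 h, and 22 of the 35 tested were lower in shade averaged over time points (20.9% of all tested genes were). At 3 h it was 1586 to 2186 FPKM in shaded roots and 1401 to 1885 FPKM in unshaded roots. The part of the green-tissue level in the results below was not tested. In these bulk samples, fewer cells of a type and less RNA per cell cannot be told apart.

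Of the 84 HD-Zip genes, 31 passed a filter of a mean of at least 1 FPKM over the 16 libraries and were tested. Another 29 were listed at 0 in every library, and 24 were above 0 but below the filter, with a highest mean of 0.628 FPKM, in Solyc03g120620.3, described as GLABRA 2. Class could be read from the protein name in 76 descriptions. Class I had 16 members, of which 14 were tested, and class II had 10, of which 8 were tested. Class III had 2 members and 1 tested. Class IV had 48 members, of which only 3 were tested and 27 were at 0 throughout. Of the class IV genes, 30 were described as ROC8, and 17 of these were at 0 in all libraries. The tested members lay mostly in classes I and II, and 5 had names that gave no class. Some members share a description, such as the ROC8 genes and the HOX14 genes with neighbouring identifiers Solyc03g034110.4 and Solyc03g034120.3. Whether reads were split between them was not tested, since no tomato sequence was used here. Solyc10g150101.1 passed the filter only through its shaded libraries, with a mean of 3.06 FPKM in shaded roots against 0.949 FPKM in unshaded roots. A gene that passes in this way has to be higher in shade, so its values and adjusted p-values are a description. Counts of members called higher at 24 h, averaged and for 24 h minus 3 h are also given without it. Other counts and medians over the tested or class I members include it.

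**Figure D1:**
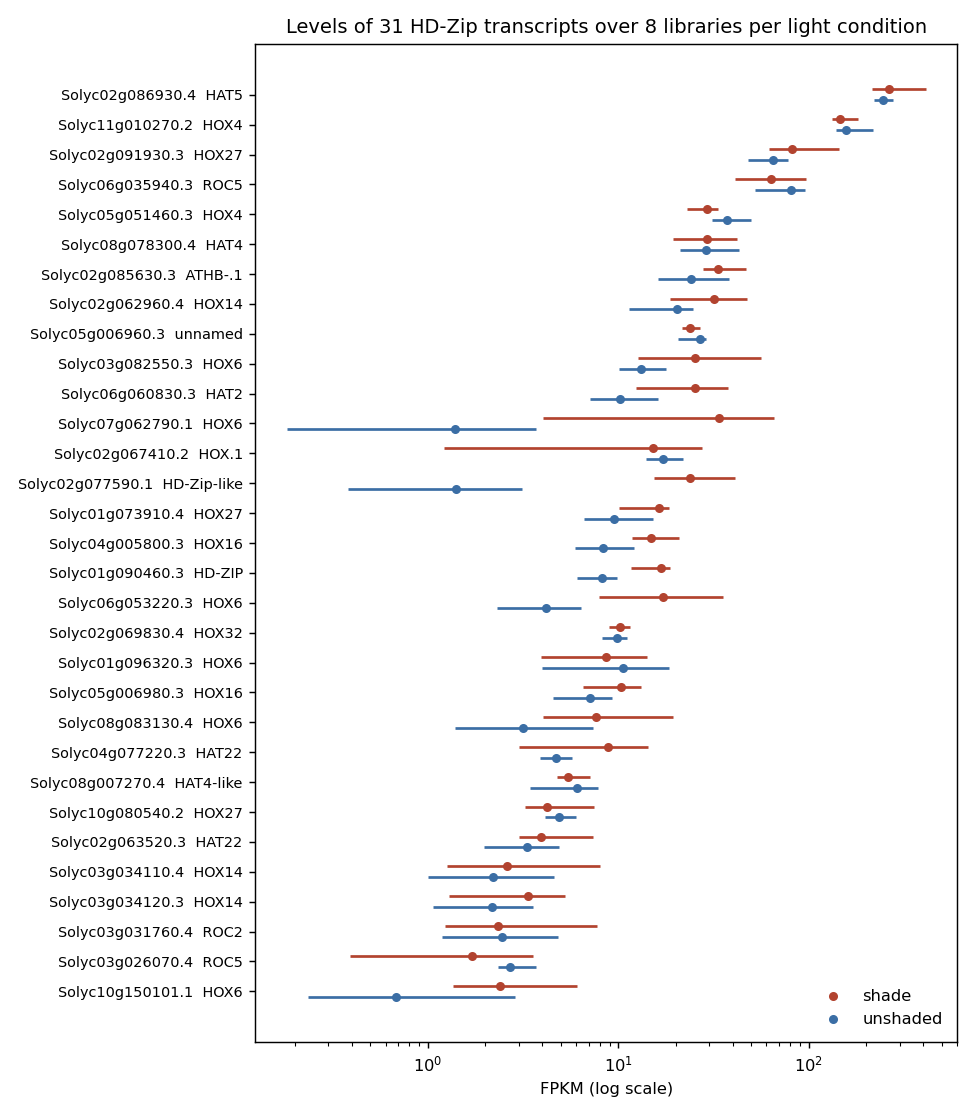
Levels of the 31 tested HD-Zip transcripts. Each gene has a line from the lowest to the highest FPKM and a point at the median over the 8 shaded libraries (above) and the 8 unshaded libraries (below), on a log scale. Solyc02g086930.4 (HAT5) had the highest level. The lines of Solyc02g077590.1, Solyc07g062790.1, Solyc01g090460.3 and Solyc06g053220.3 in shaded roots lay wholly above their lines in unshaded roots.

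The levels of the 31 genes can be compared per length, since FPKM are scaled by it. The highest belonged to Solyc02g086930.4, named HAT5 after the Arabidopsis class I gene also called ATHB-1, with 216 to 411 FPKM in shaded roots and 221 to 276 FPKM in unshaded roots. Next came Solyc11g010270.2, named after rice HOX4 and also in class I, with 132 to 182 FPKM in shaded roots and 139.8 to 219 FPKM in unshaded roots. The third by its mean over all 16 libraries was Solyc02g091930.3, named after the rice class II gene HOX27, with 61.6 to 144 FPKM in shaded roots and 48 to 78.1 FPKM in unshaded roots. The ranges of these 3 genes did not overlap one another in unshaded roots. The class IV gene Solyc06g035940.3 (ROC5) overlapped Solyc02g091930.3 in both lights, and its mean in unshaded roots was above that of Solyc02g091930.3, at 78.7 against 65.2 FPKM. Summed over the members, the level was 864 and 879 FPKM in shaded roots against 787 and 791 FPKM in unshaded roots at 3 h. At 24 h the sum was 1145 and 1263 FPKM in shaded roots against 924 and 970 FPKM in unshaded roots. The summed level was higher in both shaded libraries than in both unshaded ones at each time.

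The question of the comparison was how shade changes each gene at each time. It was tested with limma on log2(FPKM + 1) over all 20413 tomato genes that passed the filter, with Benjamini-Hochberg adjustment over all of them, and a gene counted as called at an adjusted p under 0.05. The shade effect of a gene is its log2 fold change, shade minus unshaded on log2(FPKM + 1), which understates changes of low genes. The adjusted p-values given throughout are from this limma fit unless another is named.

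At 3 h, 3 of the 31 HD-Zip genes were higher in shade and none was lower, where 0.113% of all tested genes were called higher and 0.0735% lower. At an unadjusted p under 0.05, 2 were lower at 3 h, and voom on recovered fragments called none lower. At 6 h, 6 were higher and none lower, against 1.14% and 0.495% of all genes. An unadjusted p under 0.05 was reached by 1 lower member at 6 h, and voom again called none lower. At 12 h, 12 were higher and 2 lower, against 10.6% and 13.3% of all genes. At 24 h, 12 were higher and 4 lower, against 15.9% and 21.4% of all genes, which made 16 in either direction against 37.3%. Averaged over the 4 times, 15 were higher and 3 lower, against 18.2% and 20.9% of all genes, which made 18 in either direction against 39.2%. At an unadjusted p under 0.05, 17 were higher and 3 lower in this average. Voom called 14 higher and 3 lower of the 28 members with recovered fragments, and 7287 of 18525 genes in either direction. For the unadjusted counts of this paragraph, the share of all genes was not computed. Without Solyc10g150101.1, 11 of 30 were called higher at 24 h and 14 of 30 averaged in the main fit. The share of members called higher (48.4% averaged) was above the share of all genes called higher in each of these comparisons, and the members called lower were fewer than those called higher.

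Over the 31 genes the median log2 fold change was 0.19 for 3 h, 0.37 for 6 h, 0.64 for 12 h and 0.17 for 24 h, where the median over all tested genes lay between -0.03 and 0.03. Counting only calls at or past a 2-fold change, 3 members were higher at 3 h (0.098% of all genes) and 4 at 6 h (0.578%). At 12 h there were 6 such members (2.95%), and at 24 h 8 higher, or 7 without Solyc10g150101.1 (4.69%), and 2 lower (7%). The counts depended on single libraries, among these genes and over all genes alike. At 3 h, 1 member was called without shaded library 1, 1 without shaded library 2, 0 without unshaded library 1 and 1 without unshaded library 2 of 3 h, while the calls over all genes were 10, 7, 0 and 13 in the same fits, against 38 with all libraries. The 6 h count was 1 without shaded library 1 and 2 without shaded library 2 of 6 h, with 7 and 44 over all genes against 334. The 12 h count of 14 in both directions was 9 without shaded library 1 and 8 without shaded library 2 of 12 h, with 2482 and 1804 over all genes against 4876. The 24 h count of 16 was 10 without shaded library 1 and also without unshaded library 2 of 24 h, with 3339 and 3895 over all genes against 7611.

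**Figure D2:**
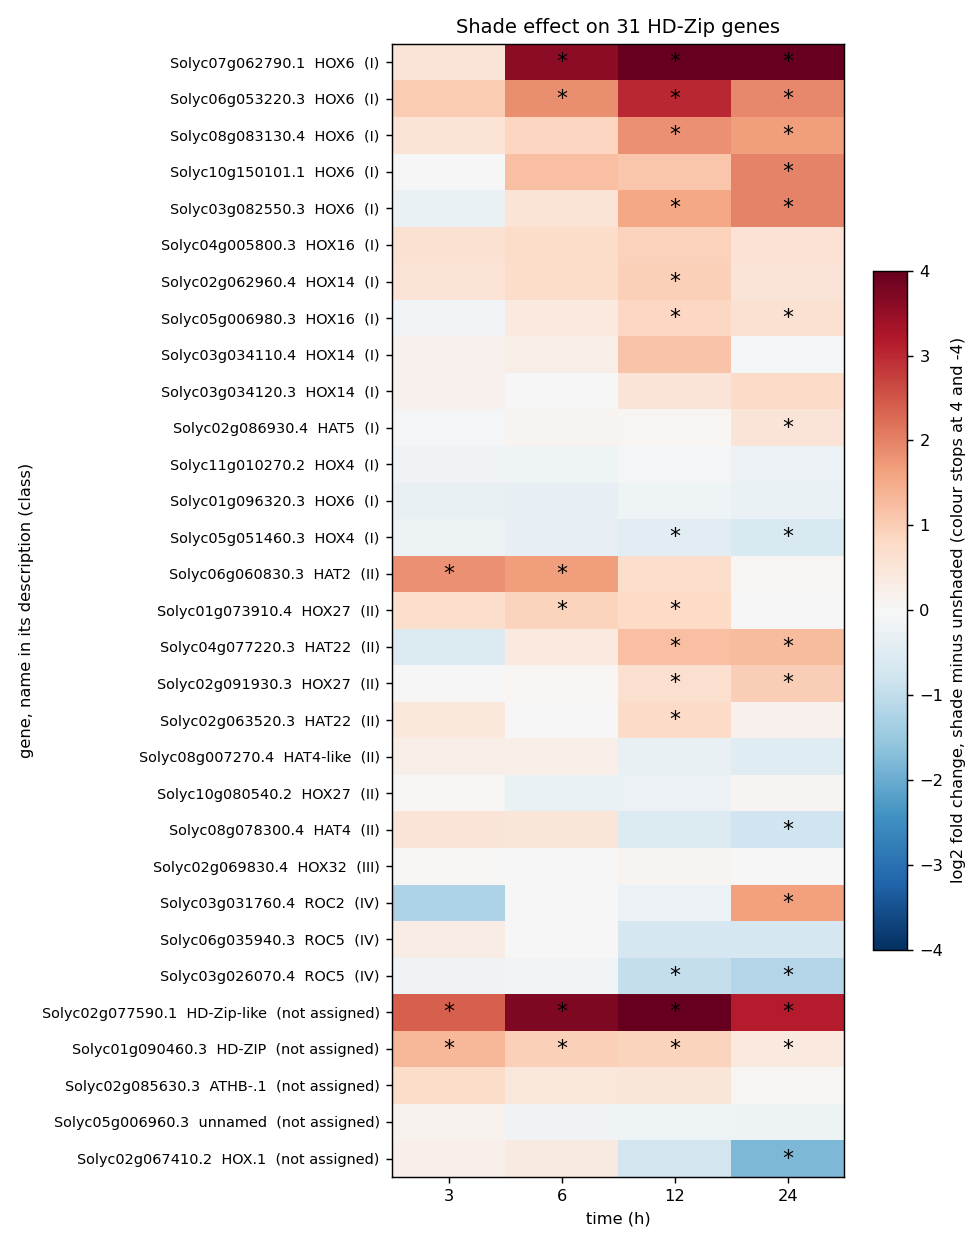
Shade effect on the 31 tested HD-Zip genes at 3, 6, 12 and 24 h, as the log2 fold change of shade minus unshaded on log2(FPKM + 1), in red where higher in shade and blue where lower. Genes are grouped by the class read from their description, and a star marks an adjusted p under 0.05. Of the 4 columns, 3 h and 6 h hold no blue cell with a star, and 12 h and 24 h hold 2 and 4.

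In class II, the class known in Arabidopsis for shade responses, 4 of the 8 tested members were higher averaged over time points and none was lower at an adjusted p under 0.05, against 18.2% and 20.9% of all genes. The median log2 fold change of the class was 0.38. Its members did not share one time course. The class II genes called at 3 h or 6 h were Solyc06g060830.3 and Solyc01g073910.4, and those called at 24 h were Solyc04g077220.3 and Solyc02g091930.3 as higher and Solyc08g078300.4 as lower.

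Solyc06g060830.3 is described as HAT2, in Arabidopsis an auxin-induced gene. In shaded roots it had 34.4 and 37.5 FPKM after 3 h, 27 and 34.4 after 6 h, 23.6 and 18.2 after 12 h and 12.4 and 15.1 after 24 h. Unshaded roots had 9.48 and 9.14 FPKM after 3 h, 7.14 and 11.1 after 6 h, 9.36 and 16.2 after 12 h and 13.3 and 12.3 after 24 h. The shaded libraries stood above the unshaded ones at 3, 6 and 12 h and overlapped them at 24 h, and the means of the shaded libraries were lower at each later time while the unshaded libraries ranged over 7.14 to 16.2 FPKM. The shade effect was 1.84 ± 0.25 (SE, adjusted p = 0.0222) at 3 h and 1.67 ± 0.25 (SE, adjusted p = 0.0138) at 6 h. By 12 h it was 0.71 ± 0.25 (SE, adjusted p = 0.0608), and at 24 h 0.09 ± 0.25 (SE, adjusted p = 0.798). Solyc06g060830.3 lost its 3 h call without shaded library 1, shaded library 2, unshaded library 1 or unshaded library 2 of 3 h (adjusted p 0.133 to 0.267) and its 6 h call without shaded library 1 or shaded library 2 of 6 h (adjusted p 0.0923 to 0.106).

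Solyc01g073910.4, described as HOX27 after a rice class II gene, held 10.1 and 14.3 FPKM after 3 h, 17.6 and 17.8 after 6 h, 18.5 and 16.4 after 12 h and 16.4 and 14 after 24 h in shaded roots. Unshaded roots held 6.6 and 7.31 FPKM after 3 h, 10.4 and 7.72 after 6 h, 9.77 and 9.3 after 12 h and 15.2 and 14.6 after 24 h. Shaded and unshaded libraries were separate at 3, 6 and 12 h, with shade higher, and the unshaded values had reached those of shade at 24 h. This gave an effect of 0.71 ± 0.17 (SE, adjusted p = 0.146) at 3 h, 0.90 ± 0.17 (SE, adjusted p = 0.0261) at 6 h and 0.80 ± 0.17 (SE, adjusted p = 0.00707) at 12 h. At 24 h it was 0.03 ± 0.17 (SE, adjusted p = 0.913), and averaged over the times 0.61 ± 0.08 (SE, adjusted p = 0.000365). Solyc01g073910.4 lost its 6 h call without shaded library 1, shaded library 2 or unshaded library 2 of 6 h (adjusted p 0.111 to 0.212) and its 12 h call without shaded library 1 of 12 h (adjusted p = 0.052).

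Solyc08g078300.4 carries the name HAT4, the Arabidopsis shade marker. Shaded roots gave 41.9 and 35.1 FPKM after 3 h, 32.5 and 36.2 after 6 h, 23.7 and 24.1 after 12 h and 19.4 and 25.9 after 24 h. Unshaded roots gave 25.3 and 28.3 FPKM after 3 h, 21.1 and 28.4 after 6 h, 29.2 and 43 after 12 h and 38.4 and 41.2 after 24 h. Both shaded libraries were above both unshaded ones at 3 and 6 h and below them at 12 and 24 h, so the order of the groups turned over. At 3 h the log2 fold change was 0.50 ± 0.20 (SE, adjusted p = 0.422), which missed the threshold, and at 6 h 0.47 ± 0.20 (SE, adjusted p = 0.304). At 12 h it was -0.55 ± 0.20 (SE, adjusted p = 0.0672), and at 24 h, where the gene was called lower, -0.80 ± 0.20 (SE, adjusted p = 0.0105). The averaged value was -0.09 ± 0.10 (SE, adjusted p = 0.481). Solyc08g078300.4 lost its 24 h call without shaded library 1 or unshaded library 2 of 24 h (adjusted p 0.0658 to 0.0992).

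Solyc04g077220.3, described as HAT22 after an Arabidopsis class II gene linked to abscisic acid responses, was called at the late times. Its levels in shaded roots were 3.01 and 3.5 FPKM after 3 h, 7.65 and 5.89 after 6 h, 12.4 and 10.1 after 12 h and 14.3 and 10.3 after 24 h. In unshaded roots they were 4.81 and 5.75 FPKM after 3 h, 4.3 and 5.66 after 6 h, 4.63 and 3.89 after 12 h and 4.23 and 4.74 after 24 h. Shade was below unshaded at 3 h and above it from 6 h on, without overlap at any of the 4 times. Its shade effect was -0.56 ± 0.19 (SE, adjusted p = 0.342) at 3 h, 0.38 ± 0.19 (SE, adjusted p = 0.414) at 6 h, 1.21 ± 0.19 (SE, adjusted p = 0.00214) at 12 h and 1.26 ± 0.19 (SE, adjusted p = 0.00143) at 24 h.

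The other class II members called at any time were a second HOX27 gene and a second HAT22 gene. Solyc02g091930.3 had 61.6 and 64.3 FPKM after 3 h, 69.9 and 72.5 after 6 h, 91.3 and 98.9 after 12 h and 144 and 129.6 after 24 h in shaded roots. Unshaded roots had 60.8 and 64 FPKM after 3 h, 78.1 and 57.5 after 6 h, 76.1 and 48 after 12 h and 66.3 and 71.1 after 24 h. The groups overlapped at 3 and 6 h, and shade was higher at 12 and 24 h. The resulting effect was 0.64 ± 0.19 (SE, adjusted p = 0.0324) at 12 h and 0.98 ± 0.19 (SE, adjusted p = 0.00342) at 24 h. Solyc02g091930.3 lost its 12 h call without shaded library 1, shaded library 2 or unshaded library 2 of 12 h (adjusted p 0.0895 to 0.198), and the 12 h value was 0.97 without unshaded library 1 and 0.32 without unshaded library 2 of 12 h.

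Solyc02g063520.3 had 3.01 and 3.93 FPKM after 3 h, 3.31 and 3.17 after 6 h, 6.52 and 7.35 after 12 h and 3.92 and 6.28 after 24 h in shaded roots. Unshaded roots showed 2.78 and 1.96 FPKM after 3 h, 3.0 and 3.66 after 6 h, 2.79 and 4.67 after 12 h and 4.87 and 3.84 after 24 h. The groups were separate at 3 and 12 h, with shade higher, and overlapped at 6 and 24 h. The log2 fold change at 12 h was 0.77 ± 0.24 (SE, adjusted p = 0.0407), and the averaged value of 0.33 ± 0.12 (SE, adjusted p = 0.0504) missed the threshold. Solyc02g063520.3 lost its 12 h call without any 1 of 7 libraries (adjusted p 0.0527 to 0.227), and the 12 h value was 0.48 without unshaded library 1 of 12 h. The remaining 2 tested class II genes, Solyc08g007270.4 (HAT4-like) and Solyc10g080540.2 (HOX27), were called at no time.

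In class I, 8 of the 14 tested members were higher averaged over time points and 2 lower, against 18.2% and 20.9% of all genes, and the median log2 fold change was 0.56. At 24 h, 7 were called higher and 1 lower, against 15.9% and 21.4% of all genes. Without Solyc10g150101.1, 7 of 13 were higher averaged and 6 of 13 at 24 h. Rice HOX6, the namesake of 6 tested members, is a class I gene that responds to drought. Of the 6, 5 were higher averaged over time, and 4 of 5 without Solyc10g150101.1, beside 18.2% of all genes.

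Solyc07g062790.1, a HOX6 gene, was at most 3.70 FPKM in unshaded roots. Shaded roots held 4.05 and 6.79 FPKM after 3 h, 21.2 and 22.3 after 6 h, 45.1 and 45.6 after 12 h and 66.1 and 51.5 after 24 h. Unshaded roots held 3.03 and 3.7 FPKM after 3 h, 0.183 and 2.07 after 6 h, 1.19 and 1.59 after 12 h and 1.16 and 0.234 after 24 h. Shade was above unshaded at all 4 times, with a small gap at 3 h and a wider one at each later time. The mean at 24 h was 58.8 ± 10.4 FPKM in shaded roots and 0.696 ± 0.653 FPKM in unshaded roots (SD, n = 2 each). The recovered fragments behind these levels were 537 and 376 in shaded roots, against 9 and 2 in unshaded roots at 24 h, and at 6 h they were 107 and 118 in shaded roots, against 1 and 11 in unshaded roots. The effect of shade was 0.53 ± 0.40 (SE, adjusted p = 0.731) at 3 h, 3.58 ± 0.40 (SE, adjusted p = 0.0056) at 6 h, 4.28 ± 0.40 (SE, adjusted p = 0.000213) at 12 h and 5.18 ± 0.40 (SE, adjusted p = 0.000175) at 24 h. On recovered fragments, limma voom gave 6.68 ± 0.68 (SE, adjusted p = 0.00028) at 24 h. Solyc07g062790.1 lost its 6 h call without shaded library 1 of 6 h (adjusted p = 0.0634).

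Solyc06g053220.3, also HOX6, had its highest shaded values at 12 h. It had 7.95 and 9.84 FPKM after 3 h, 16.2 and 17.4 after 6 h, 34.4 and 35.5 after 12 h and 20.1 and 17.1 after 24 h in shaded roots. Unshaded roots had 3.09 and 4.92 FPKM after 3 h, 6.38 and 2.31 after 6 h, 4.52 and 2.56 after 12 h and 3.99 and 4.36 after 24 h. The shaded libraries were higher at every time, most so at 12 h. A difference of the shade effect of Solyc06g053220.3 between times was not called (moderated F-test, adjusted p = 0.0763). On the log2 scale the effect was 1.00 ± 0.33 (SE, adjusted p = 0.316) at 3 h, 1.85 ± 0.33 (SE, adjusted p = 0.0234) at 6 h, 3.02 ± 0.33 (SE, adjusted p = 0.000462) at 12 h and 1.92 ± 0.33 (SE, adjusted p = 0.00214) at 24 h. Solyc06g053220.3 lost its 6 h call without shaded library 1, shaded library 2 or unshaded library 2 of 6 h (adjusted p 0.0642 to 0.189).

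Solyc03g082550.3 had the highest unshaded level of the 5 HOX6 genes that rose. Shaded roots contained 13.6 and 12.7 FPKM after 3 h, 16.1 and 19.9 after 6 h, 30.7 and 39.4 after 12 h and 56.1 and 47.5 after 24 h. Unshaded roots contained 17.9 and 14.4 FPKM after 3 h, 13.7 and 10.2 after 6 h, 12.6 and 10.3 after 12 h and 13.7 and 11.1 after 24 h. The groups were in the reverse order at 3 h, and from 6 h shade was above unshaded without overlap. The shade effect was -0.27 ± 0.19 (SE, adjusted p = 0.706) at 3 h and 0.56 ± 0.19 (SE, adjusted p = 0.193) at 6 h. It reached 1.53 ± 0.19 (SE, adjusted p = 0.00074) at 12 h and 1.98 ± 0.19 (SE, adjusted p = 0.000497) at 24 h.

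Solyc08g083130.4 had 5.63 and 7.32 FPKM after 3 h, 4.03 and 7.94 after 6 h, 6.33 and 14.4 after 12 h and 19.3 and 17.9 after 24 h in shaded roots. Unshaded roots contained 7.36 and 2.16 FPKM after 3 h, 3.52 and 2.09 after 6 h, 1.39 and 2.78 after 12 h and 6.07 and 4.23 after 24 h. The libraries of unshaded roots at 3 h lay on either side of the shaded ones, and from 6 h the shaded ones were higher. This gave an effect of 1.82 ± 0.48 (SE, adjusted p = 0.0218) at 12 h and 1.69 ± 0.48 (SE, adjusted p = 0.0199) at 24 h. Solyc08g083130.4 lost its 12 h call without shaded library 2 or unshaded library 1 of 12 h (adjusted p 0.11 to 0.164) and its 24 h call without shaded library 1, shaded library 2 or unshaded library 2 of 24 h (adjusted p 0.0512 to 0.117).

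Solyc10g150101.1, a low-level HOX6 gene, had 2.4 and 1.36 FPKM after 3 h, 1.85 and 4.16 after 6 h, 2.24 and 3.99 after 12 h and 6.07 and 2.37 after 24 h in shaded roots. Unshaded roots gave 1.05 and 2.88 FPKM after 3 h, 0.732 and 0.628 after 6 h, 1.19 and 0.619 after 12 h and 0.257 and 0.234 after 24 h. The groups overlapped at 3 h and were separate at the 3 later times, with shade higher. Its shade effect was 1.19 ± 0.43 (SE, adjusted p = 0.22) at 6 h, 1.09 ± 0.43 (SE, adjusted p = 0.0885) at 12 h and 1.97 ± 0.43 (SE, adjusted p = 0.00573) at 24 h. With voom on recovered fragments the 24 h value was 3.81 ± 0.86 (SE, adjusted p = 0.00494), more than 1.5 times the value on log2(FPKM + 1). Solyc10g150101.1 lost its 24 h call without shaded library 1 of 24 h (adjusted p = 0.0616). The sixth HOX6 gene, Solyc01g096320.3, named after its values were seen, had an averaged shade effect of -0.26 ± 0.20 (SE, adjusted p = 0.323).

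**Figure D3:**
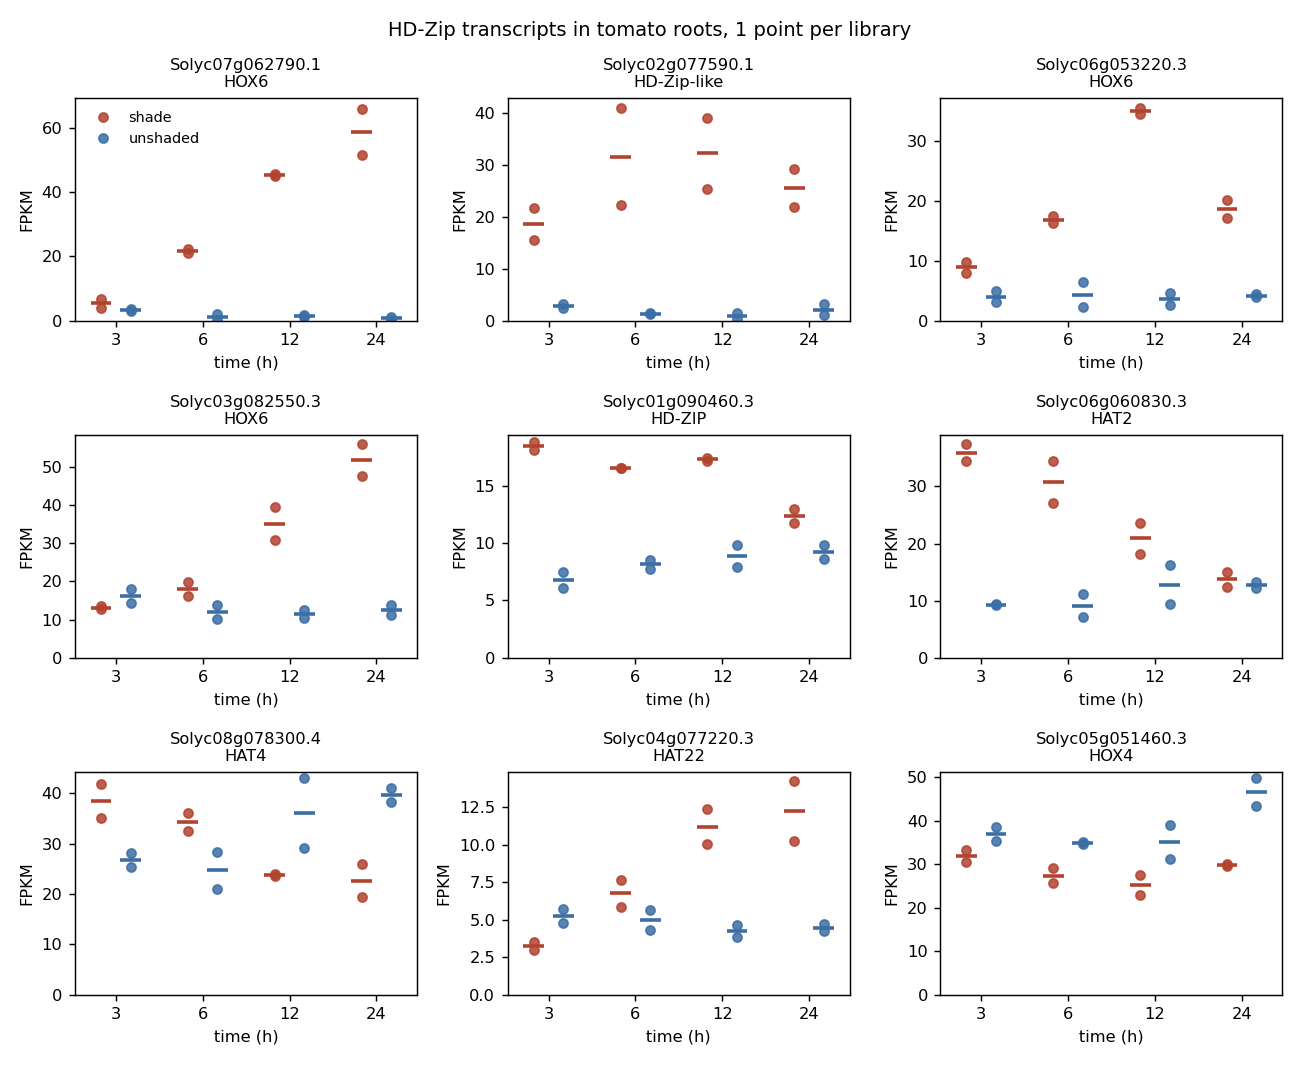
FPKM of 9 HD-Zip transcripts in tomato roots at 3, 6, 12 and 24 h, with 1 point per library, shaded libraries on the left of each pair and unshaded ones on the right, and a bar at the mean of the 2 libraries. Solyc07g062790.1 and Solyc02g077590.1 were at most 3.70 FPKM in unshaded roots, Solyc06g060830.3 was highest in shade at 3 h, and the order of the groups turned over in Solyc08g078300.4.

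The other class I genes that were called had smaller averaged effects. Solyc05g006980.3, named after rice HOX16, had 6.53 and 7.36 FPKM after 3 h, 9.36 and 11.6 after 6 h, 11.6 and 9.24 after 12 h and 11.2 and 13.2 after 24 h in shaded roots. Unshaded roots reached 8.05 and 7.15 FPKM after 3 h, 8.34 and 7.13 after 6 h, 6.3 and 4.56 after 12 h and 9.31 and 6.07 after 24 h. Shaded libraries overlapped unshaded ones at 3 h and were higher from 6 h. The resulting effect was 0.84 ± 0.21 (SE, adjusted p = 0.0157) at 12 h and 0.62 ± 0.21 (SE, adjusted p = 0.0358) at 24 h. Solyc05g006980.3 lost its 12 h call without shaded library 1 or unshaded library 2 of 12 h (adjusted p 0.0949 to 0.107) and its 24 h call without shaded library 1, shaded library 2 or unshaded library 2 of 24 h (adjusted p 0.0783 to 0.28), and the 24 h value was 0.35 without unshaded library 2.

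Solyc02g062960.4, named after rice HOX14, had 18.7 and 19.4 FPKM after 3 h, 28.1 and 29.7 after 6 h, 36.9 and 47.7 after 12 h and 33.8 and 34.6 after 24 h in shaded roots. Unshaded roots ranged over 11.4 and 14.2 FPKM after 3 h, 12.9 and 22.2 after 6 h, 18.3 and 24.7 after 12 h and 24.4 and 22.7 after 24 h. Every shaded library was above both unshaded ones of its time. The averaged effect was 0.69 ± 0.11 (SE, adjusted p = 0.00101), and the 12 h value of 0.95 ± 0.22 (SE, adjusted p = 0.0128) was the one called at a single time. Solyc02g062960.4 lost its 12 h call without shaded library 2 or unshaded library 1 of 12 h (adjusted p 0.076 to 0.10). A second HOX16 gene, Solyc04g005800.3, which falls outside the 12 smallest adjusted p-values and was named after its values were seen, was likewise higher in every shaded library. Its averaged effect was 0.71 ± 0.15 (SE, adjusted p = 0.00438). The neighbouring HOX14 genes Solyc03g034110.4 and Solyc03g034120.3 were called at no time, the nearest being the 12 h effect of 1.13 ± 0.38 (SE, adjusted p = 0.0533) in Solyc03g034110.4. With voom this 12 h value was called, at 1.45 ± 0.46 (SE, adjusted p = 0.0358), as was the 24 h value of Solyc03g034120.3, at 1.04 ± 0.39 (SE, adjusted p = 0.0496).

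Solyc02g086930.4, the HAT5 gene with the highest level, held 216 and 229 FPKM after 3 h, 261 and 272 after 6 h, 232 and 265 after 12 h and 411 and 328 after 24 h in shaded roots. Unshaded roots carried 234 and 240.0 FPKM after 3 h, 276 and 222 after 6 h, 254 and 221 after 12 h and 250.2 and 257 after 24 h. The shaded libraries were just below the unshaded ones at 3 h, overlapped them at 6 and 12 h, and were higher at 24 h. The log2 fold change at 24 h was 0.53 ± 0.14 (SE, adjusted p = 0.0129), and averaged over the times 0.15 ± 0.07 (SE, adjusted p = 0.107). Solyc02g086930.4 lost its 24 h call without shaded library 1, unshaded library 1 or unshaded library 2 of 24 h (adjusted p 0.0574 to 0.121).

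The class I genes that fell were both described as HOX4. Solyc05g051460.3 had 33.3 and 30.6 FPKM after 3 h, 25.7 and 29.2 after 6 h, 27.7 and 22.9 after 12 h and 29.5 and 30.2 after 24 h in shaded roots. Unshaded roots were at 38.6 and 35.4 FPKM after 3 h, 34.6 and 35.2 after 6 h, 31.2 and 39.1 after 12 h and 49.8 and 43.5 after 24 h. Shade was below unshaded at all 4 times. The effect of shade was -0.46 ± 0.13 (SE, adjusted p = 0.0295) at 12 h and -0.62 ± 0.13 (SE, adjusted p = 0.00491) at 24 h, and -0.41 ± 0.07 (SE, adjusted p = 0.000991) averaged. Solyc05g051460.3 lost its 12 h call without shaded library 2 or unshaded library 2 of 12 h (adjusted p 0.171 to 0.198), and the value without unshaded library 2 was -0.30.

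Solyc11g010270.2, the second most abundant member, had 132 and 135 FPKM after 3 h, 133 and 145 after 6 h, 147 and 146 after 12 h and 182 and 167 after 24 h in shaded roots. Unshaded roots stood at 156 and 142 FPKM after 3 h, 159 and 153 after 6 h, 139.8 and 167 after 12 h and 219 and 195 after 24 h. Shade was lower without overlap at 3, 6 and 24 h, and between the unshaded libraries at 12 h. The averaged shade effect of -0.16 ± 0.05 (SE, adjusted p = 0.040) was just past the threshold, and no single time was. Solyc11g010270.2 lost this call without any 1 of 12 libraries, where its value lay between -0.17 and -0.12. With these included, the call was lost in 16 of 23 other fits. Among them was voom on recovered fragments, at -0.14 ± 0.06 (SE, adjusted p = 0.055).

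The 1 tested class III gene, Solyc02g069830.4 (HOX32), named after its values were seen, spanned 8.94 to 11.6 FPKM in shaded roots and 8.25 to 11.1 FPKM in unshaded roots. Its averaged effect was 0.06 ± 0.05 (SE, adjusted p = 0.387). Of the 3 tested class IV genes, 1 was lower averaged over time points and none was higher at an adjusted p under 0.05, against 20.9% and 18.2% of all genes.

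Solyc03g026070.4, described as ROC5 after a rice epidermal gene that acts in leaf rolling, had 3.58 and 2.46 FPKM after 3 h, 2.21 and 2.21 after 6 h, 0.981 and 0.814 after 12 h and 0.392 and 1.21 after 24 h in shaded roots. Unshaded roots showed values of 3.31 and 3.51 FPKM after 3 h, 2.44 and 2.51 after 6 h, 2.53 and 2.9 after 12 h and 2.35 and 3.68 after 24 h. The groups overlapped at 3 h, and shade was lower from 6 h. On the log2 scale the effect was -0.97 ± 0.24 (SE, adjusted p = 0.0155) at 12 h and -1.18 ± 0.24 (SE, adjusted p = 0.00415) at 24 h. On recovered fragments, voom gave -1.58 ± 0.36 (SE, adjusted p = 0.00894) at 12 h and -2.08 ± 0.39 (SE, adjusted p = 0.00201) at 24 h. Solyc03g026070.4 lost its 12 h call without shaded library 1, shaded library 2 or unshaded library 2 of 12 h (adjusted p 0.0545 to 0.089).

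Solyc03g031760.4, described as ROC2, had 1.23 and 1.25 FPKM after 3 h, 2.19 and 2.55 after 6 h, 1.47 and 2.5 after 12 h and 7.78 and 4.77 after 24 h in shaded roots. Unshaded roots had values of 3.78 and 4.85 FPKM after 3 h, 2.91 and 2.0 after 6 h, 3.61 and 1.54 after 12 h and 1.19 and 1.4 after 24 h. Shade was below unshaded at 3 h, overlapped it at 6 and 12 h, and was above it at 24 h. The shade effect was -1.24 ± 0.30 (SE, adjusted p = 0.162) at 3 h and 1.64 ± 0.30 (SE, adjusted p = 0.00276) at 24 h, and the averaged value was 0.04 ± 0.15 (SE, adjusted p = 0.861). The other ROC5 gene, Solyc06g035940.3, had a level of 41.2 to 96.8 FPKM in shaded roots and 52.5 to 95.1 FPKM in unshaded roots and was called at no time, with its value at 24 h at -0.66 ± 0.24 (SE, adjusted p = 0.0556).

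Of the 5 tested members without a class, 3 were higher averaged over time points and none was lower at an adjusted p under 0.05, against 18.2% and 20.9% of all genes. Solyc02g077590.1, described only as a homeobox-leucine zipper-like protein, was called higher at each of the 4 times. It had 15.5 and 21.7 FPKM after 3 h, 22.3 and 40.9 after 6 h, 39 and 25.4 after 12 h and 29.2 and 21.8 after 24 h in shaded roots. Unshaded roots had only 3.14 and 2.36 FPKM after 3 h, 1.4 and 1.26 after 6 h, 1.42 and 0.38 after 12 h and 1.11 and 3.13 after 24 h. Shade was above unshaded at every time, and no unshaded library was above 3.14 FPKM. Recovered fragments in unshaded roots numbered 25 and 16 at 3 h, 8 and 7 at 6 h, 10 and 3 at 12 h and 9 and 28 at 24 h. This gave an effect of 2.38 ± 0.39 (SE, adjusted p = 0.0496) at 3 h, 3.75 ± 0.39 (SE, adjusted p = 0.00514) at 6 h, 4.15 ± 0.39 (SE, adjusted p = 0.00023) at 12 h and 3.15 ± 0.39 (SE, adjusted p = 0.000884) at 24 h. On recovered fragments, voom gave 4.43 ± 0.72 (SE, adjusted p = 0.0236) at 6 h and 5.30 ± 0.76 (SE, adjusted p = 0.00085) at 12 h, and its 3 h value of 2.72 ± 0.58 (SE, adjusted p = 0.149) missed the threshold. Solyc02g077590.1 lost its 3 h call without any 1 of 12 libraries (adjusted p 0.0541 to 0.337). With these included, the 3 h call was lost in 18 of 24 other fits.

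Solyc01g090460.3, described only as HD-ZIP, was also called at all 4 times. Shaded roots had 18.1 and 18.8 FPKM after 3 h, 16.5 and 16.6 after 6 h, 17.4 and 17.2 after 12 h and 11.7 and 13 after 24 h. Unshaded roots read 6.04 and 7.47 FPKM after 3 h, 8.53 and 7.76 after 6 h, 7.9 and 9.83 after 12 h and 9.85 and 8.63 after 24 h. The shaded libraries were higher at every time, by most at 3 h. Its shade effect was 1.33 ± 0.13 (SE, adjusted p = 0.00387) at 3 h, 0.94 ± 0.13 (SE, adjusted p = 0.0105) at 6 h, 0.90 ± 0.13 (SE, adjusted p = 0.00131) at 12 h and 0.38 ± 0.13 (SE, adjusted p = 0.0374) at 24 h. Solyc01g090460.3 lost its 3 h call without unshaded library 1 of 3 h (adjusted p = 0.0561), its 6 h call without shaded library 1 or shaded library 2 of 6 h (adjusted p 0.0669 to 0.115) and its 24 h call without any 1 of 8 libraries (adjusted p 0.0521 to 0.212).

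Solyc02g067410.2, described as HOX.1, was called lower at 24 h. A difference of its shade effect between times was not called (moderated F-test, adjusted p = 0.1305). Shaded roots measured 27.6 and 20.1 FPKM after 3 h, 19 and 21.5 after 6 h, 10.9 and 11.5 after 12 h and 1.22 and 8.44 after 24 h. Unshaded roots measured 18.8 and 21.9 FPKM after 3 h, 15.6 and 15.2 after 6 h, 20.5 and 18.2 after 12 h and 13.9 and 15.9 after 24 h. The groups overlapped at 3 h, shade was higher at 6 h without passing the test, and both shaded libraries were lower at 12 and 24 h. The shaded libraries of 24 h were themselves far apart. The log2 fold change at 24 h was -1.80 ± 0.47 (SE, adjusted p = 0.0137), -0.75 without shaded library 1 (adjusted p = 0.026) and -2.84 without shaded library 2 (adjusted p = 2.86e-05). Solyc02g067410.2 lost the call without unshaded library 2 of 24 h (adjusted p = 0.0753), and voom called the averaged value of -0.59 ± 0.21 (SE, adjusted p = 0.0369), which the main test did not.

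Solyc02g085630.3, whose description names an ATHB protein without a usable number, falls outside the 12 smallest adjusted p-values and was named after its values were seen. Its averaged effect was 0.44 ± 0.14 (SE, adjusted p = 0.0265), with no single time called, and the call was lost without any 1 of 6 libraries (adjusted p 0.0527 to 0.0655). The last member without a class, Solyc05g006960.3, cites the Arabidopsis gene AT1G27050 in its description. The opening of RefSeq's note for AT1G27050 says that it encodes a protein with an RNA recognition motif and was earlier annotated as an HD-Zip gene. The rest of the note was not read. Whether Solyc05g006960.3 encodes an HD-Zip protein was not tested, since no tomato sequence was used. Solyc05g006960.3 was called at no time.

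Light labels were also permuted within time points for each member's averaged difference, an exact two-sided test with 1296 splits and a smallest possible p of 0.00154. That smallest p was reached by 7 members, 6 higher and 1 lower, where 8.23% of all tested genes reached it, 4.78% as higher and 3.44% as lower. They were Solyc07g062790.1, Solyc06g053220.3, Solyc02g062960.4, Solyc04g005800.3, Solyc02g077590.1 and Solyc01g090460.3 among the higher, and Solyc05g051460.3 as the lower.

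Whether the shade effect differed between time points was tested as the light by time interaction, with a moderated F-test in the same limma fit. It was called for 7 of the 31 members, where 6.79% of all genes were called. Their adjusted p-values were 0.0164 for Solyc03g082550.3 (HOX6), 0.0182 for Solyc07g062790.1 (HOX6), 0.0226 for Solyc04g077220.3 (HAT22), 0.0245 for Solyc03g031760.4 (ROC2), 0.035 for Solyc08g078300.4 (HAT4), 0.0359 for Solyc06g060830.3 (HAT2) and 0.0457 for Solyc01g090460.3. The effect was larger at 24 h than at 3 h in the first 4 and smaller in the other 3.

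The difference of the effect at 24 h minus that at 3 h, chosen after seeing the data, was positive and called for 7 members and negative and called for 3, against 6.83% and 12.1% of all genes. It was 4.66 ± 0.56 (SE, adjusted p = 0.00584) for Solyc07g062790.1 and 2.88 ± 0.42 (SE, adjusted p = 0.00873) for Solyc03g031760.4. For Solyc03g082550.3 it was 2.25 ± 0.27 (SE, adjusted p = 0.00584), and for Solyc04g077220.3 1.82 ± 0.27 (SE, adjusted p = 0.00915). On the other side, Solyc06g060830.3 had -1.75 ± 0.35 (SE, adjusted p = 0.0143), Solyc08g078300.4 had -1.30 ± 0.28 (SE, adjusted p = 0.0162) and Solyc01g090460.3 had -0.95 ± 0.18 (SE, adjusted p = 0.0126). The remaining 3 positive calls were those of Solyc02g091930.3 at 0.97 ± 0.27 (SE, adjusted p = 0.0326), Solyc02g086930.4 at 0.62 ± 0.20 (SE, adjusted p = 0.0482) and Solyc10g150101.1 at 1.97 ± 0.61 (SE, adjusted p = 0.0461). With voom the value of Solyc10g150101.1 was 3.76 ± 1.11 (SE, adjusted p = 0.0352). Without this gene, which passed the filter only through its shaded libraries, the positive calls were 6 of 30.

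These time calls rested on single libraries in part, and the calls over all genes dropped in the same fits. The interaction count was 1 without shaded library 1 of 3 h, 1 without unshaded library 1 of 3 h and 0 without unshaded library 2 of 3 h, with 64, 63 and 4 over all genes against 1386. It was 4 and 3 without shaded library 1 and 2 of 6 h, with 289 and 95 over all genes, and 4 and 3 without those of 12 h, with 411 and 112. It was 4 without shaded library 1, 2 without unshaded library 1 and 1 without unshaded library 2 of 24 h, with 496, 96 and 34 over all genes. The count for 24 h minus 3 h was 4 without shaded library 1, 6 without unshaded library 1 and 5 without unshaded library 2 of 3 h, with 176, 1360 and 143 over all genes against 3872. It was 5 without shaded library 1 and also without unshaded library 2 of 24 h, with 859 and 273 over all genes. Solyc01g090460.3 lost its late-minus-early call without shaded library 1 of 3 h (adjusted p = 0.0533), Solyc06g060830.3 without shaded library 1 of 3 h, unshaded library 2 of 3 h, shaded library 1 of 24 h or unshaded library 2 of 24 h (adjusted p 0.0526 to 0.0582) and Solyc08g078300.4 without any 1 of 5 libraries (adjusted p 0.0516 to 0.0728). Solyc02g091930.3 lost it without any 1 of 6 libraries (adjusted p 0.0751 to 0.11), Solyc02g086930.4 without any 1 of 11 libraries (adjusted p 0.0592 to 0.171) and Solyc10g150101.1 without any 1 of 12 libraries (adjusted p 0.050 to 0.168).

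**Figure D4:**
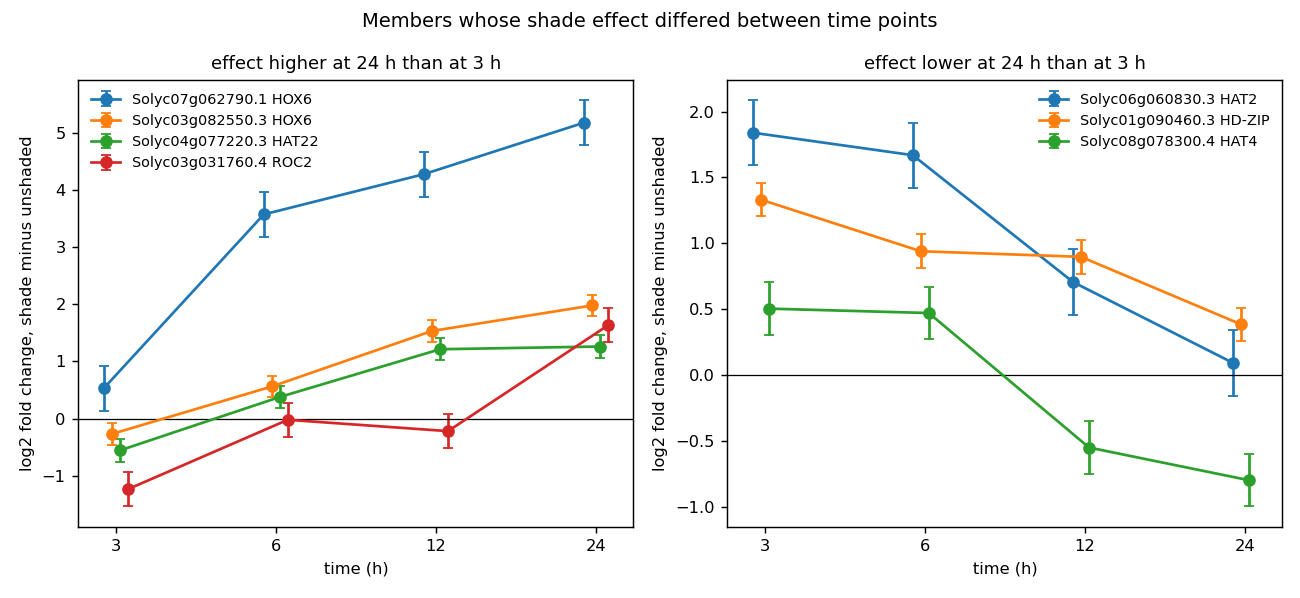
Log2 fold change of shade minus unshaded against time for the 7 members with a called light by time interaction, with bars of 1 SE. On the left the effect was larger at 24 h than at 3 h, reaching 5.18 in Solyc07g062790.1, and on the right it was smaller, with Solyc08g078300.4 above 0 at 3 h and at -0.80 at 24 h.

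In unshaded roots alone, no member changed with time at an adjusted p under 0.05, where 0.0637% of all genes did. By the unadjusted F-test of limma, 11 members had a p under 0.05, and voom on recovered fragments called 0. The share of all genes at that unadjusted p was not computed. The count of 11 is therefore not read as a result about the members. Without unshaded library 2 of 6 h, 1 member was called.

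The rule left out 8 tomato genes whose descriptions word the family differently, as homeobox leucine-zipper proteins or as leucine zipper, homeobox-associated proteins. Of these, 6 were tested. Solyc03g120910.4 was called higher in the average, at 0.43 ± 0.06 (SE, adjusted p = 0.000425), where 18.2% of all genes were. Solyc08g066500.4 was called lower, at -0.25 ± 0.07 (SE, adjusted p = 0.0175), where 20.9% were. The others were not called in the average. Solyc02g087840.3 had -0.56 ± 0.21 (SE, adjusted p = 0.0592) and Solyc02g024070.3 -0.29 ± 0.11 (SE, adjusted p = 0.0562). Solyc12g044410.2 had -0.15 ± 0.08 (SE, adjusted p = 0.146) and Solyc11g069470.3 -0.03 ± 0.06 (SE, adjusted p = 0.668). All but Solyc03g120910.4 thus had a negative averaged value. These genes were named after their values were seen.

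For the related gene lists that follow, values are log2 shade effects averaged over the 4 times unless a time is given, and the median over all tested genes was -0.02. Other homeobox genes of tomato, 66 of them tested, had 19 higher and 6 lower averaged over time points, against 18.2% and 20.9% of all genes, with a median log2 fold change of 0.09. Among them the zinc-finger homeodomain genes Solyc09g089550.4 and Solyc05g007580.1 rose by 0.80 ± 0.09 (SE, adjusted p = 9.78e-05) and 0.73 ± 0.09 (SE, adjusted p = 0.000204). Little zipper proteins bind class III HD-Zip proteins in Arabidopsis and keep them from forming active dimers. Of the 2 tested little zipper genes, neither was called in the average. Solyc09g009620.1, described as LITTLE ZIPPER 3, had 18.5 and 24.1 FPKM in shaded roots, against 9.34 and 9.62 FPKM in unshaded roots at 6 h. At 24 h it had 10.5 and 8.15 FPKM in shaded roots, against 17.5 and 16.9 FPKM in unshaded roots. Its order of groups turned over between these times, with a shade effect of 1.08 ± 0.23 (SE, adjusted p = 0.0427) at 6 h and -0.83 ± 0.23 (SE, adjusted p = 0.0157) at 24 h. Solyc01g005180.1, also LITTLE ZIPPER 3, had an averaged value of 0.20 ± 0.23 (SE, adjusted p = 0.526).

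Among the photoreceptors and phytochrome-interacting factors, 3 of 8 tested genes were higher averaged over time points and none was lower at an adjusted p under 0.05, against 18.2% and 20.9% of all genes. Phytochrome A, a far-red light receptor (Solyc10g044670.3), rose by 0.36 ± 0.08 (SE, adjusted p = 0.00407), and cryptochrome 1b, a blue light receptor (Solyc12g057040.2), by 0.62 ± 0.17 (SE, adjusted p = 0.0137). Of 18 tested Aux/IAA genes, whose proteins repress auxin responses and which auxin itself induces, 5 were higher and 2 lower, against 18.2% and 20.9% of all genes, with a median of 0.05. IAA4 (Solyc06g053840.3) rose by 0.85 ± 0.07 (SE, adjusted p = 2.19e-05) and IAA26 (Solyc03g121060.4) by 1.03 ± 0.09 (SE, adjusted p = 2.88e-05). IAA4 had 217 and 190.0 FPKM in shaded roots, against 91 and 88.5 FPKM in unshaded roots at 6 h, without overlap.

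Of 80 tested genes for abscisic acid receptors and protein phosphatases 2C, 22 were higher and 11 lower averaged over time points, against 18.2% and 20.9% of all genes, with a median of 0.06. The phosphatase gene Solyc01g065700.3 fell, at -1.16 ± 0.14 (SE, adjusted p = 0.000167), and Solyc07g062970.3 rose by 0.59 ± 0.07 (SE, adjusted p = 0.000173). Dehydrin and late embryogenesis abundant genes, which respond to drought and abscisic acid, had 4 of 50 higher and 11 lower, against 18.2% and 20.9% of all genes, with a median of -0.06. The late embryogenesis abundant gene Solyc12g098900.2 rose by 1.58 ± 0.18 (SE, adjusted p = 0.000167), and Solyc01g087140.4 fell, at -0.74 ± 0.10 (SE, adjusted p = 0.000416). Gibberellin 2-oxidases inactivate gibberellins. Of 8 tested gibberellin oxidases, 2 were higher (18.2% of all genes), gibberellin 2-oxidase 5 (Solyc07g061730.3) at 0.90 ± 0.12 (SE, adjusted p = 0.000326) and gibberellin 2-oxidase 4 (Solyc07g061720.3) at 1.02 ± 0.21 (SE, adjusted p = 0.00325). Cytokinin oxidases break down cytokinins. Of 6 tested, cytokinin oxidase4 (Solyc04g080820.2) was higher at 0.52 ± 0.10 (SE, adjusted p = 0.00296) and cytokinin oxidase6 (Solyc12g008900.2) lower at -0.73 ± 0.18 (SE, adjusted p = 0.00886).

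The HD-Zip genes of Arabidopsis roots in the same series, 48 listed by identifier and 35 tested, were fitted in the same way on their own table. At 3 h, 3 were higher and 5 lower, against 15.2% and 10.5% of all Arabidopsis genes, or 8 in either direction against 25.6%. Averaged over the 6 Arabidopsis times, from 30 min to 5 days, 16 were higher and 7 lower, against 34.6% and 35.9% of all genes, or 23 in either direction against 70.5%. The species were not tested against each other, since the tables were made and normalised apart and their time points differ. Of the 9 tested class II genes, 5 were higher and none lower on average at an adjusted p under 0.05, and of the 7 tested class IV genes none was higher and 4 were lower. Of the 14 tested class I genes, 8 were higher and 2 lower on average, and of the 5 tested class III genes 3 were higher and 1 lower. These class counts stand beside the same 34.6% and 35.9% of all genes. Averaged median log2 fold changes were 0.14 in class I, 0.11 in class II, 0.09 in class III and -0.15 in class IV. The median over all genes was -0.005. Calls as higher were thus not particular to class II, and no rise of the family is read from them.

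The 4 Arabidopsis members with the smallest averaged adjusted p were HAT9, HB52, HAT22 and HAT14. HAT9 (class II) had an averaged shade effect of 0.97 ± 0.04 (SE, adjusted p = 1.16e-11). HB52 (class I) had 0.78 ± 0.07 (SE, adjusted p = 7.79e-08), with 1.85 ± 0.17 (SE, adjusted p = 2.18e-06) at 3 h and -0.10 ± 0.17 (SE, adjusted p = 0.634) at 1 day. It was called higher at every time but 1 day. The effect was 0.74 ± 0.17 (SE, adjusted p = 0.0148) at 30 min and 0.48 ± 0.17 (SE, adjusted p = 0.0323) at 7 h. At 3 days it was 0.82 ± 0.17 (SE, adjusted p = 0.000751), and at 5 days 0.89 ± 0.17 (SE, adjusted p = 0.000387). HAT22 had 0.39 ± 0.03 (SE, adjusted p = 5.52e-08) and HAT14 0.49 ± 0.04 (SE, adjusted p = 8.53e-08), both in class II. The Arabidopsis genes whose names the tomato genes Solyc06g060830.3 and Solyc08g078300.4 carry were chosen after values were seen. HAT2 had -0.11 ± 0.10 (SE, adjusted p = 0.443) at 3 h and 0.42 ± 0.10 (SE, adjusted p = 0.0019) at 3 days, where it was called higher, and 0.11 ± 0.04 (SE, adjusted p = 0.0241) averaged. HB-2, the HAT4 gene, had -0.10 ± 0.12 (SE, adjusted p = 0.582) at 3 h and 0.01 ± 0.05 (SE, adjusted p = 0.842) averaged.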

How the data were processed

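The authors deposited FPKM per gene in 1 table per species, and the values were used as deposited. Cufflinks 2.1.1 and the build TAIR10 are named in the submitters' processing notes, with no role. The tomato build, the aligner and the counting settings, strand included, are not given in the sources used here. Columns were matched to samples by their titles. Members were found by their descriptions, and classes by the protein name in them. The members and lists were chosen with earlier results of these data known.

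Genes with a mean of at least 1 FPKM over the 16 tomato libraries were tested on log2(FPKM + 1) with limma 3.58.1 in R 4.3.3, with 1 mean per group, a variance trend and Benjamini-Hochberg adjustment over all 20413 genes. Time effects used moderated F-tests in that fit. The fit was also run on simulated data with independent spread per gene and the same shade change at all times. That simulation held no shared library effects and no shade effect that varied with time. It could not show how these bear on the calls. Steps between low FPKM values gave whole fragments (within 0.02 fragments) for 18525 genes (90.75%), 28 of the 31 tested members among them, which were fitted with limma voom as an alternative chosen after seeing the data. Members named are the first 12 called in the average by adjusted p, those called at any time or in the interaction, and the 3 of highest mean. From each related list 2 genes and from Arabidopsis 4, with the smallest averaged adjusted p, were named. Others named were chosen after their values were seen. Alternatives were a pseudocount of 0.1, no filter, median-of-ratios scaling, equal FPKM sums (added after seeing the data), replicate blocks, fits to the 2 groups of a time point, and leaving out each library. No coordinates or sequences are given. Figures were drawn with matplotlib 3.10.9.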

Additional observations from a re-analysis of the deposited data

Results flagged for a closer look

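By the interaction test in limma, 7 HD-Zip genes had shade effects that differed with time. The log2 fold changes of Solyc07g062790.1 (HOX6) spanned 4.66 between its lowest and highest time point. Those of Solyc03g031760.4 (ROC2) spanned 2.88, from lower in shade at 3 h to higher at 24 h. In Solyc03g082550.3 (HOX6) the span was 2.25, and in Solyc04g077220.3 (HAT22) it was 1.82. The class II gene Solyc06g060830.3 (HAT2) had a span of 1.75, with its highest value at 3 h. Solyc08g078300.4 (HAT4) had a span of 1.3 and changed sign between 6 and 12 h. Solyc01g090460.3, described as HD-ZIP, had a span of 0.95. Groups held 2 libraries each, too few to look for outlying samples.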

How the results depend on the processing

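The counts of members called averaged over time points stayed at 18 in every other fit with all libraries, or 17 of 28 with voom. The called members were not all the same. With voom, Solyc11g010270.2 was not called (adjusted p = 0.055) and Solyc02g067410.2 was newly called (adjusted p = 0.0369). Solyc06g053220.3 was not among the 28. No called value of the 23 named members changed direction. Of their recomputed values in fits other than those leaving out 1 library, 55 of single genes fell short of the threshold and 2 newly passed it. Another 479 kept their side. The fits to the 2 groups of a time point, which use only the libraries of that time, are among these. The fit to the 2 groups of a time point called 0 members at 3 h, 0 at 6 h and 6 at 12 h; over all genes it called 0, 0 and 1244. Without a filter, 4 members had a called interaction. Leaving out single libraries gave 0 to 3 members at 3 h, 1 to 6 at 6 h, 8 to 16 at 12 h, 10 to 19 at 24 h, 16 to 20 averaged, 4 to 13 for 24 h minus 3 h, 0 to 10 for the interaction and 0 to 1 for time in unshaded roots. In these fits 128 values of single genes fell short of the threshold and 7 newly passed it, against 1017 that kept their side. The cause of these differences was not tested. Shaded and unshaded libraries of the same number and time deviated from their group means with correlations of -0.00328 to 0.0986. This shows no large shared deviation within a time point. It cannot tell whether the numbers mark pairs or batches, and links across time points were not examined. With a replicate block across time points, 2, 6, 16 and 18 members were called at 3, 6, 12 and 24 h and 18 averaged. With a replicate block within time points the counts were 0, 2, 12 and 16, with 18 averaged and 0 for the interaction. In Arabidopsis the block across time points gave 7 members at 3 h and 23 averaged, against 8 and 23 without it. Median-of-ratios scaling gave 3, 6, 14 and 16 members at the 4 times, as without it, though Solyc05g051460.3 lost its 12 h call (-0.41, adjusted p = 0.0518). The calls over all genes in the fits without a filter, with blocks or with scaling are not given here. Whether the members moved with all genes cannot be read from these counts. With 2 libraries a group, low genes are the least certain: 3 of the 28 members with recovered fragments had fewer than 10 fragments in some library, and intervals for such counts would cover counting error only.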
